A study of Mus musculus with 10 samples.

Results

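Skeletal muscle lineage genes were examined in cultured embryonic fibroblasts of the mouse (MEFs), connective tissue cells not known for forming muscle. The 10 genes Pax3, Pax7, Myf5, Myod1, Myog, Chrna1, Ckm, Acta1, Actc1 and Des were taken by symbol from a deposited table of 52550 genes, and all 10 were found. The study compared female with male cells. The 5 female and 5 male libraries came from C57BL/6 embryos at embryonic day 14, and the cells were at passage 3, grown in DMEM with fetal bovine serum. The labels name no transgene and no treatment. The labels do not say whether libraries of 1 sex came from separate embryos or separate cultures, so the p-values below cover the spread among these libraries alone, and that spread may be technical. Each library was made from total RNA depleted of ribosomal RNA. A bulk library mixes every cell of a culture, so fewer cells of a type and less RNA per cell cannot be told apart.

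In the embryo, Pax3 and Pax7 are transcription factors of muscle progenitors, and both also act in the neural crest and the neural tube. Myf5, Myod1 and Myog are basic helix-loop-helix factors that commit cells to the muscle fate and then drive differentiation, by binding a short DNA sequence called the E-box together with partners such as Tcf3 and Tcf12. Differentiating cells fuse into fibres, turn on the acetylcholine receptor subunit gene Chrna1 and the muscle actins, and later make the creatine kinase Ckm that maintains ATP in mature fibres. Des encodes desmin, an intermediate filament of skeletal, cardiac and smooth muscle, so its transcript is not specific to skeletal muscle.

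Upstream sequences are shown for 4 members that this pathway is known to act on: the regulator gene Myog, its classical target Chrna1 and the striated muscle actins Acta1 and Actc1. Each is the RefSeq sequence of the 250 bases before the annotated start site in GRCm38.p6, written 5′ to 3′ along the gene's strand. Capitals mark E-boxes (CANNTG, which reads as an E-box on both strands) and the CArG box, a site of serum response factor searched on both strands. No E-box overlapped a CArG box in these windows. RefSeq starts differ from the gene bounds of the deposited table: the Actc1 window lies wholly inside those bounds and the Myog window runs into them.
Myog, chr1:134289754-134290003, plus strand: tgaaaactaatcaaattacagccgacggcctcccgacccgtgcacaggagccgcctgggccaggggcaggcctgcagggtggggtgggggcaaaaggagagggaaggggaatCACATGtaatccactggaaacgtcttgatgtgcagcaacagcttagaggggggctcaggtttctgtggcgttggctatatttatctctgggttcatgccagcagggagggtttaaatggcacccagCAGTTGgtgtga
Chrna1, chr2:73580339-73580588, minus strand: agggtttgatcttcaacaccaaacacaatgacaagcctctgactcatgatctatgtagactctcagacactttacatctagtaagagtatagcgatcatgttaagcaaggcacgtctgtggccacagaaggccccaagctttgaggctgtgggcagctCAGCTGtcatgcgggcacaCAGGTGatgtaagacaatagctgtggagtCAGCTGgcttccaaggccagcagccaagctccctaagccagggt
Acta1, chr8:123894776-123895025, minus strand: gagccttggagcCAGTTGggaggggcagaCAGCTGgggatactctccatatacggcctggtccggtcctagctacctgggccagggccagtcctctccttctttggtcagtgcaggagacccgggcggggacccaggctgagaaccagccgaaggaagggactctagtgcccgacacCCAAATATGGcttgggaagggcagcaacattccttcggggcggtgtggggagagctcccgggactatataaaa
Actc1, chr2:114052876-114053125, minus strand: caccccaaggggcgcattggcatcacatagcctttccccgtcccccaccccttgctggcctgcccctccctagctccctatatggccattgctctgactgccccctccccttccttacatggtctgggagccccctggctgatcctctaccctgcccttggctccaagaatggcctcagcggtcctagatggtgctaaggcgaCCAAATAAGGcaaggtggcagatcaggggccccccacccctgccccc

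The Chrna1 window held 3 E-boxes, whose first bases lay at -92, -73 and -44 from the start site. Myog held 2, at -138 and -12, and Acta1 held 2, at -238 and -221, with a CArG box at -73. The Actc1 window held a CArG box at -47 and no E-box. Of the 8 members with a RefSeq promoter, 5 had an E-box and 2 a CArG box within 250 bases, against 66.2% and 1.47% of all 32851 promoters searched. An E-box is thus common at this length, and a match marks letters rather than a bound site.

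Depth was 30662616 to 45859721 unique gene reads per library, and a count of 3 reads, the most that 0 observed reads allow for, equalled 0.0631 to 0.0961 CPM (reads scaled to a library size of 1000000), a limit that covers counting error only. The MEF label was checked with 9 fibroblast genes, all of which had reads in every library. The highest were the collagen genes Col1a1 (5758 to 8011 CPM) and Col1a2 (2515 to 3741 CPM) and the intermediate filament gene Vim (4226 to 5202 CPM). The lowest were Dcn (24.1 to 50.8 CPM) and Pdgfra (50.1 to 81.6 CPM). Some smooth muscle genes were high as well, with Acta2 at 2880 to 4463 CPM and Tagln at 849 to 1258 CPM. Summed over 10 cardiac genes the level was 15.5 to 18.6 CPM in females and 13.96 to 23.6 CPM in males. In a comparison of female with male libraries across 16602 genes (edgeR, quasi-likelihood), 15 genes were called at an adjusted p under 0.05, 7 higher in females and 8 higher in males.

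Levels of the 10 members spanned a wide range, with Acta1 and Des at the top and the muscle regulators at the bottom. On the authors' RPKM scale, which divides by exon length, Acta1 averaged 99.3 ± 6.88 and Des 19.1 ± 3.72 (SD, n = 10 libraries). Ckm averaged 0.496 ± 0.844, Actc1 0.488 ± 0.116, Chrna1 0.413 ± 0.157 and Pax3 0.219 ± 0.069 RPKM. Myog (0.0200 ± 0.0236), Pax7 (0.0154 ± 0.0049), Myod1 (0.0117 ± 0.0145) and Myf5 (0.00406 ± 0.0053) were the 4 lowest, all transcription factor genes.

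Some steps in this order held in every library and others did not. Acta1 exceeded Des, Des exceeded Ckm, Chrna1 exceeded Pax3 and Pax3 exceeded Myog in 10 of 10 libraries each. Ckm exceeded Actc1 in 2 libraries and Actc1 exceeded Chrna1 in 6, and among Myog, Pax7, Myod1 and Myf5 each gene exceeded the next in 4 to 6 libraries, so these neighbours did not differ beyond their spread. The authors' RPKM also counts reads that map to several places, which matters for the actins, whose place in the order is uncertain. From unique exon reads, Acta1 came to 28.7 and Actc1 to 0.149 on the same scale as RPKM, which put Actc1 below Chrna1 (0.409) and Pax3 (0.218).

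**Figure D1:**
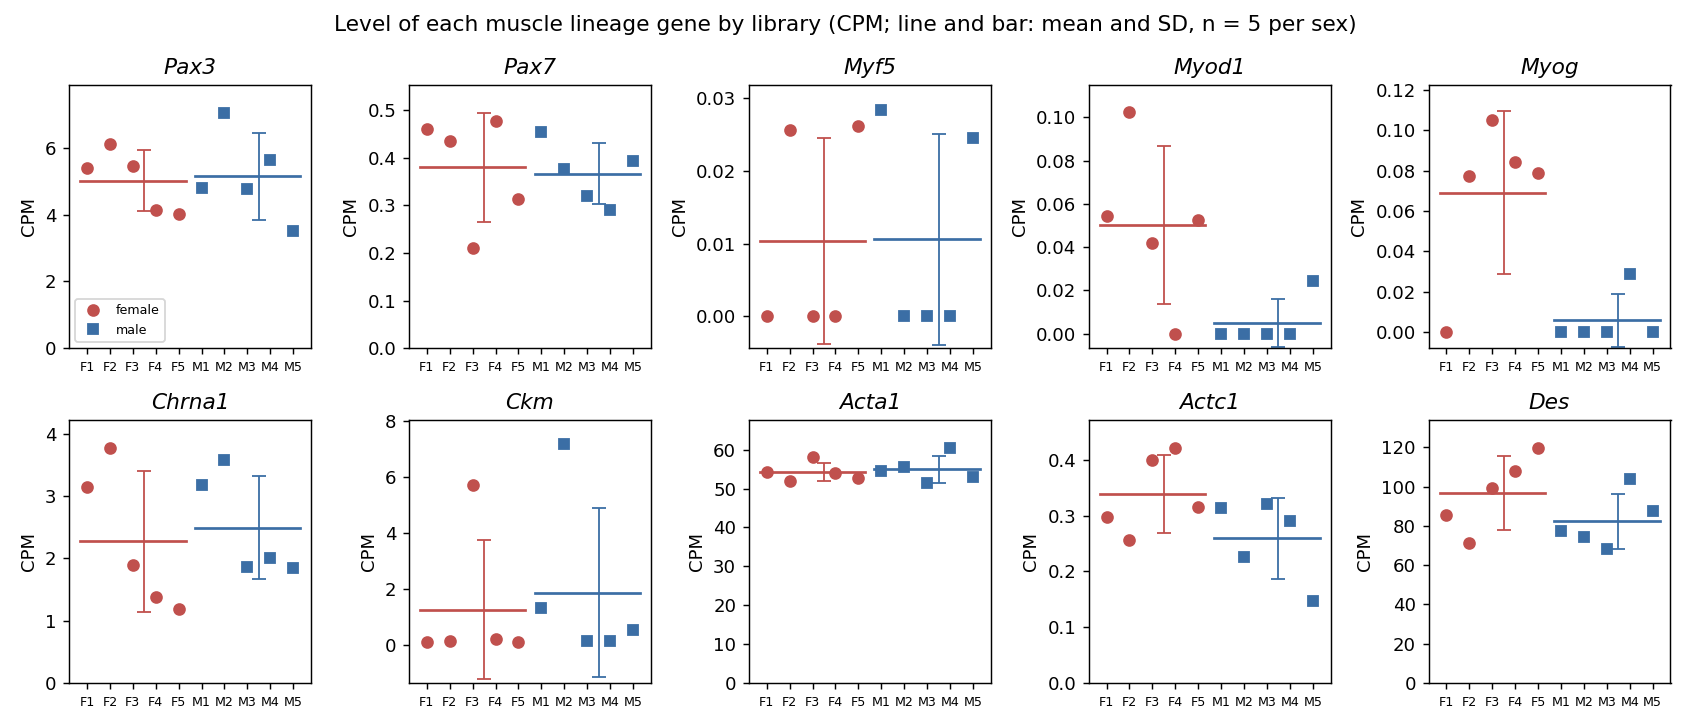
Level of each of the 10 genes in CPM (vertical axes, each with its own scale) in the 5 female libraries (F1 to F5, circles) and the 5 male libraries (M1 to M5, squares), with the mean as a line and the SD as a bar (n = 5 per sex). Female and male libraries overlap for every gene, Acta1 stays between 51.4 and 60.5 CPM, and Ckm stands out in F3 (5.72 CPM) and M2 (7.20 CPM).

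Of the upstream factors, Pax3 was detected at a few CPM in every library, whereas Pax7 was near the limit of detection. Pax3 (chromosome 1, 78101267 to 78197134, minus strand, mm10) had 5.39, 6.14, 5.45, 4.13 and 4.01 CPM in female libraries 1 to 5, against 4.81, 7.05, 4.77, 5.65 and 3.51 CPM in male libraries 1 to 5. The highest and the lowest Pax3 value were both in males (libraries 2 and 5), and the sexes overlapped. Female libraries averaged 5.02 ± 0.92 CPM and male libraries 5.16 ± 1.30 CPM (SD, n = 5 each), a log2 fold change, female minus male, of -0.036 ± 0.175 (SE; edgeR adjusted p = 0.999).

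Pax7 (chromosome 4, 139737062 to 139833528, minus strand) had 17, 17, 10, 17 and 12 unique reads in female libraries, against 16, 15, 10, 10 and 16 in male libraries. That is 0.380 ± 0.114 CPM in females and 0.367 ± 0.065 CPM in males, with the sexes overlapping (log2 fold change 0.029 ± 0.293, edgeR adjusted p = 0.999). Its variance over the 10 libraries was 0.839 times that of counting alone, so no difference between libraries was detectable for Pax7 at this depth. For Pax3 the ratio was 8.73, more than counting gives.

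Most reads of both Pax genes lay in introns. Of 1934 unique Pax3 reads, 1297 (67.1%) were intronic and 88 crossed an exon junction, and of 140 Pax7 reads, 101 (72.1%) were intronic, 39 exonic and 0 crossed a junction. Spliced Pax3 RNA was therefore seen directly, while spliced Pax7 RNA was not detectable at this depth. Markers of the neural crest, which also uses Pax3 and Pax7, were present at low levels: Sox10, its transcription factor gene, ranged from 2.63 to 4.96 CPM over the 10 libraries, and the pigment cell regulator gene Mitf from 10.2 to 19.5 CPM. Summed over 6 neural crest and neural genes, the level was 18.2 to 24.9 CPM in females and 22.8 to 27.8 CPM in males, 0 of the 6 lacked reads in all libraries, and their part in the Pax3 level was not tested.

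The determination and differentiation factors were represented by single reads. Myf5 (chromosome 10, 107482908 to 107486134, minus strand) had 0, 1, 0, 0 and 1 unique reads in female libraries, against 1, 0, 0, 0 and 1 in male libraries. With 2 reads per sex no difference was detectable (two-sided exact permutation p = 1, n = 5 per sex).

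Myod1, which can convert fibroblasts to muscle when forced on, lies at 46376474 to 46379099 on chromosome 7 (plus strand). It had 2, 4, 2, 0 and 2 unique reads in female libraries, against 0, 0, 0, 0 and 1 in male libraries, which is 0.0542, 0.103, 0.0421, 0 and 0.0524 CPM against 0, 0, 0, 0 and 0.0245 CPM. Reads appeared in 4 of 5 female libraries and 1 of 5 male libraries, and the groups overlapped at 0. The sums of 10 and 1 reads, scaled by depth, gave a ratio of 9.10 with an exact 95% interval of 1.30 to 395 that covers counting error only.

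Myog, the factor of terminal differentiation (chromosome 1, 134289989 to 134292548, plus strand), had 0, 3, 5, 3 and 3 unique reads in female libraries, against 0, 0, 0, 1 and 0 in male libraries. Again 4 of 5 female libraries and 1 of 5 male libraries had reads, and the groups overlapped at 0. The sums of 14 and 1 reads gave a depth-scaled ratio of 12.7, with an exact 95% counting interval of 1.94 to 539.

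The female excess of Myod1 and Myog reads was small in absolute terms and did not pass a correction over all genes. An exact two-sided permutation test of the CPM gave p = 0.0476 for Myod1 and p = 0.0476 for Myog (n = 5 per sex, 252 splits, smallest possible p = 0.00794). Both genes fell below the read filter. Fitted in edgeR with no filter, Myog had an unadjusted p of 0.0115 and Myod1 of 0.0338, but both had an adjusted p of 0.805 over 33541 genes, of which 5.36% had an unadjusted p under 0.05 and 0.0894% were called. The authors' deposited table gives Myog a p-value of 0.00550 with a false discovery rate of 0.715, and Myod1 a p-value of 0.0243 with a false discovery rate of 1. Over all libraries 2 Myod1 reads and 1 Myog read crossed an exon junction.

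Other genes of early muscle, chosen after their values were seen, were also low. The fourth factor of the family, Myf6, had 2 reads, both in female library 5. The fusion genes Mymk, with 1 read in each of female libraries 1 and 2 and male libraries 1, 2 and 5, and Mymx, with 1 read in female library 5, were near 0 throughout. Embryonic myosin heavy chain, Myh3, had 8, 7, 17, 11 and 23 unique reads in female libraries, against 8, 3, 2, 6 and 3 in male libraries. Female libraries 3 and 5 were the highest for Myh3, the sexes overlapped between 7 and 8 reads, and the gene fell below the read filter.

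Chrna1 encodes the alpha subunit of the muscle acetylcholine receptor (chromosome 2, 73563215 to 73580338, minus strand), and its level divided the libraries by number rather than by sex. It had 3.14, 3.77, 1.89, 1.38 and 1.18 CPM in female libraries 1 to 5, against 3.19, 3.59, 1.86, 1.998 and 1.84 CPM in male libraries 1 to 5. In both sexes, libraries 1 and 2 held the highest values, 3.14 to 3.77 CPM, and the other 6 libraries lay between 1.18 and 1.998 CPM. The means were 2.27 ± 1.14 CPM in females and 2.49 ± 0.83 CPM in males (SD, n = 5 each), with a log2 fold change of -0.14 ± 0.33 (edgeR adjusted p = 0.999).

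Chrna1 RNA was spliced, with 244 of 845 unique exon reads across a junction and 6.53% of all its unique reads in introns, and its variance between libraries was 14.2 times that of counting. Its partner Chrnb1, the beta subunit gene, was at 7.34 to 9.87 CPM, and the agrin receptor gene Lrp4 at 3.81 to 5.32 CPM. The adaptor gene Dok7 was at 0.367 to 0.924 CPM. Of 8 other genes of the postsynaptic apparatus, 4 were tested and 0 called, 3 with a positive and 1 with a negative log2 fold change and a median of 0.033, against a median of 0.0048 over all tested genes (8650 of 16602 positive).

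Ckm (chromosome 7, 19404776 to 19422841, plus strand) was the most variable member, with a coefficient of variation of 168%. It had 4, 6, 272, 8 and 4 unique reads in female libraries 1 to 5, against 47, 287, 4, 5 and 22 in male libraries 1 to 5. In CPM this was 0.108, 0.154, 5.72, 0.225 and 0.105 in females, against 1.34, 7.20, 0.128, 0.145 and 0.540 in males. Female library 3 and male library 2 were far above the others, male library 1 came next, and the highest value was 68.7 times the lowest.

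The sexes overlapped for Ckm, at 1.26 ± 2.49 CPM in females and 1.87 ± 3.02 CPM in males (SD, n = 5 each; two-sided exact permutation p = 0.508). Without female library 3 and male library 2, the means were 0.148 ± 0.056 CPM in females and 0.537 ± 0.566 CPM in males (SD, n = 4 each). Reads across exon junctions numbered 89 in female library 3 and 78 in male library 2, of 188 in all, so spliced Ckm RNA was present in both. The gene A930016O22Rik overlaps Ckm on the opposite strand. Libraries were strand-specific, but how strand entered the counting is not stated in the labels or headers.

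Genes of mature fast muscle were high in the same 2 libraries. The fast myosin heavy chain gene Myh4 had 888 unique reads in female library 3 and 976 in male library 2, with 159 in male library 1 and 6 to 37 in the other 7. Titin, Ttn, had 1862 and 2240 reads, with 388 in male library 1 and 70 to 186 in the other 7. The calcium pump gene Atp2a1 had 383 and 379 reads, with 64 in male library 1 and 8 to 27 in the other 7.

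The rank of the libraries was thus alike for these genes and Ckm: female library 3 and male library 2 near each other, male library 1 several times lower, the rest lower still. Other fast muscle genes had fewer reads. The fast troponin genes Tnnt3 (146 and 156 reads, 4 to 51 in the other 8) and Tnni2 (64 and 68 reads, 1 to 16 in the other 8) and the fast light chain gene Myl1 (80 and 86 reads, 3 to 27 in the other 8) were highest in those libraries. Pvalb, the calcium buffer gene of fast fibres, had 114 and 81 reads, against 16 in male library 1 and 0 to 6 in the other 7. Of these genes, Ttn was named by its level in a list of muscle genes and the others were chosen after their values were seen.

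Female library 3 and male library 2 were the 2 highest libraries for 17 of 28 sarcomere genes and 6 of 15 genes of calcium handling and energy supply. The same held for 325 of 21940 genes with at least 20 reads (1.48%), a share given as a description since the pair of libraries was chosen after the values were seen. It held for 0 of the listed regulator, fusion, postsynaptic and inhibitor genes, and for 0 of the fibroblast, cardiac, smooth muscle, neural and limb genes. Over all genes of the table with at least 20 reads, 8 had at least 3 times the CPM of every other library in both, and 7 of the 8 were listed muscle genes or members (Atp2a1, Ckm, Myh4, Tnnc2, Ttn, Tnni2 and Tcap, with Pvalb as the eighth). Summed over the sarcomere genes, the level was 109 CPM in female library 3 and 136 CPM in male library 2, against 41.2 CPM in male library 1 and 26.0 to 29.9 CPM in the other 7.

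**Figure D2:**
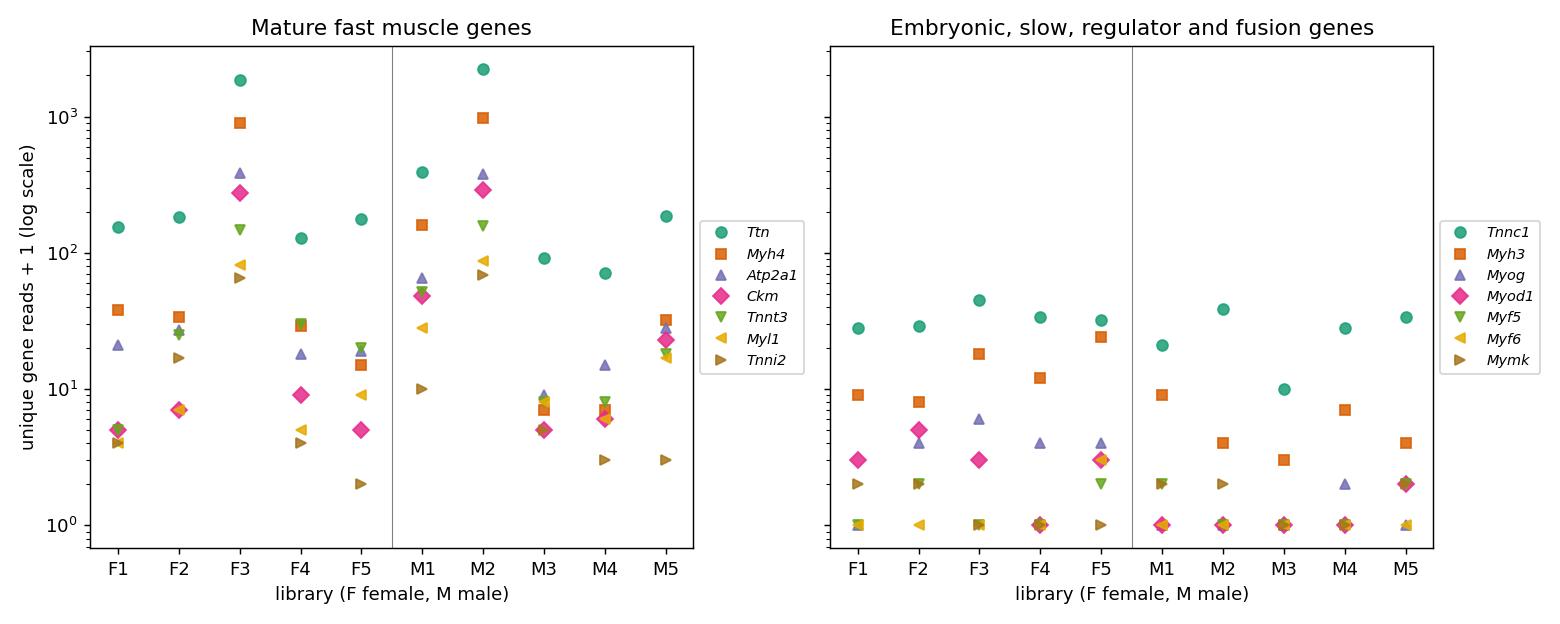
Unique gene reads plus 1 on a log scale (vertical axis) in female (F1 to F5) and male (M1 to M5) libraries for 7 genes of mature fast muscle, left, and for 7 embryonic, slow muscle, regulator and fusion genes, right. The genes at left peak in F3 and M2 and come next in M1 for most, for example Myh4 with 888, 976 and 159 reads. Those at right do not, apart from Tnnc1, whose 44 and 38 reads in F3 and M2 compare with 9 to 33 in the other 8. Myod1 and Myog had 0 to 5 reads in every library.

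Some genes of immature or slow muscle did not share this pattern. Myh3 had 17 reads in female library 3 and 3 in male library 2, and Myog had 5 and 0. Slow troponin Tnnc1 had 44 reads in female library 3 and 38 in male library 2 and 9 to 33 in the other 8, but in CPM female library 3 (0.926) was no higher than female library 4 (0.927). The slow myosin-binding protein gene Mybpc1, chosen after its values were seen, did share the pattern. It had 42 reads in female library 3 and 30 in male library 2, against 1 to 11 in the other 8. Neither library stood apart in fibroblast genes as a pair: the 9 genes summed to 14284 CPM in female library 3, the lowest of the 10 libraries, and to 16412 CPM in male library 2, with 14565 to 19414 CPM in the other 7 and 16507 CPM in male library 1. Where the mature muscle RNA came from was not tested.

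Acta1, the actin of skeletal muscle (chromosome 8, 123891769 to 123894751, minus strand), was high and the steadiest of the members. It had 54.3, 52.0, 58.0, 54.1 and 52.8 CPM in female libraries 1 to 5, against 54.7, 55.5, 51.4, 60.5 and 53.0 CPM in male libraries 1 to 5. The sexes overlapped, the coefficient of variation was 5.12%, and the libraries rich in Ckm, at 58.0 CPM in female library 3 and 55.5 CPM in male library 2, came after male library 4 (60.5 CPM) as the next highest. Means were 54.2 ± 2.32 CPM in females and 55.0 ± 3.45 CPM in males (SD, n = 5 each), with a log2 fold change of -0.020 ± 0.057 (edgeR adjusted p = 0.999).

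The reads assigned to Acta1 had an unusual make-up. Of its total reads 28.8% mapped uniquely, against a median of 98.7% over tested genes, and 80.9% of its unique exon reads crossed an exon junction. The median junction share over 13588 genes with at least 100 exon reads was 23.3%, and 23 genes exceeded Acta1. The other actins had lower shares: 42.6% for the smooth muscle actin Acta2, 39.8% for Actg2, 38.1% for the cardiac actin Actc1 and 20.05% for the cytoplasmic actin Actb. Acta1 had 0 intron reads among 20711 unique reads.

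Actin coding sequences are alike, so reads of an abundant one may be counted for another. Over 1134 coding bases, Acta1 and Actc1 were 86.2% identical, Acta1 and Acta2 85.4%, and Actc1 and Acta2 82.5%. Exact stretches of 50 bases were shared less often: 31 of 1085 such windows in the Acta1 coding sequence (2.86%) also occurred in transcripts of other genes, and 0 of 1085 in Actc1. Acta2 was at 1592 RPKM and Actb at 2809 RPKM in the authors' values, many times the 99.3 RPKM of Acta1. Of total reads, 99.9% mapped uniquely for Acta2, 99.9% for Actg2 and 94.8% for Actb, against 28.8% for Acta1. How much of the Acta1 count came from other actin transcripts was not tested, and its level is uncertain for that reason. Gm20388 overlaps Acta1 on the opposite strand.

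Actc1, the actin of the heart and of embryonic skeletal muscle, lies at 114047282 to 114053548 on chromosome 2 (minus strand). It had 11, 10, 19, 15 and 12 unique reads in female libraries, against 11, 9, 10, 10 and 6 in male libraries. That is 0.338 ± 0.070 CPM in females and 0.259 ± 0.073 CPM in males (SD, n = 5 each), and the sexes overlapped between 0.257 and 0.320 CPM. The log2 fold change of 0.40 ± 0.30 did not pass (edgeR adjusted p = 0.996), and its variance between libraries was 0.846 times that of counting.

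Uniquely mapped reads were 30.5% of the total for Actc1, and with total reads the log2 fold change was 0.088 ± 0.232 (edgeR adjusted p = 0.9999). Most total reads of Actc1 thus did not map uniquely, and its level is uncertain for that reason. How much of the Actc1 count came from other actin transcripts was not tested. A530058N18Rik overlaps Actc1 on the opposite strand. Some genes of the heart list were above Actc1 in CPM. Tnnt2, the cardiac troponin gene, was at 1.99 to 3.52 CPM, the heart and forelimb factor gene Tbx5 at 4.69 to 12.8 CPM, and the natriuretic peptide gene Nppb at 1.79 to 5.52 CPM. Others had means below those of Actc1 in both sexes: Nkx2-5 (0.134 CPM in females, 0.0856 CPM in males), Myh6 (0.0506 and 0.0428), Myl2 (0.0439 and 0.0265) and Myl7 (0.0700 and 0.142).

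**Figure D3:**
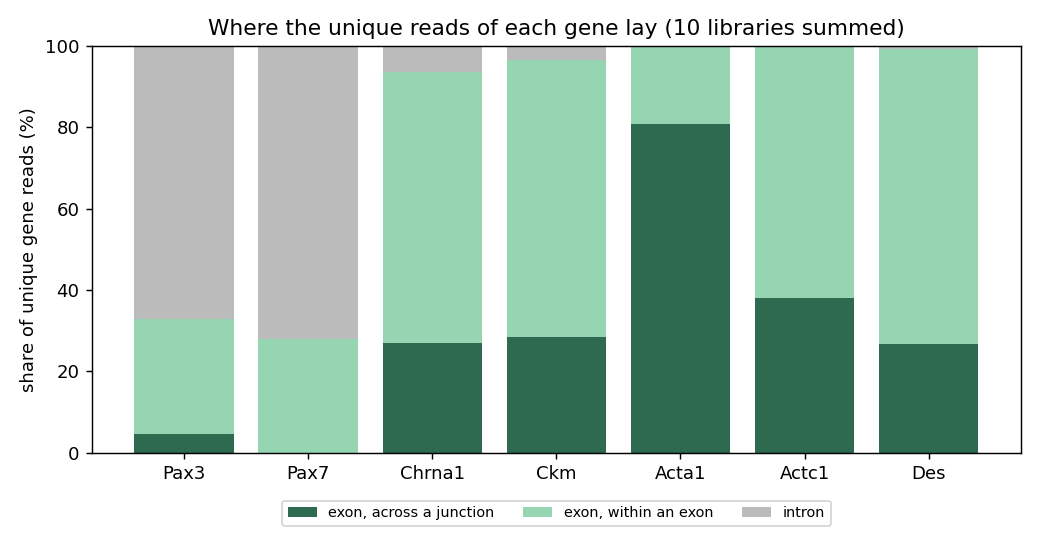
Share of unique gene reads in percent (vertical axis) that crossed an exon junction, lay within an exon or lay in an intron, summed over 10 libraries, for the 7 members with more than 100 such reads. Acta1 is mostly junction reads, at 80.9%, whereas Pax3 and Pax7 are mostly intron reads, at 67.1% and 72.1%.

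Des (chromosome 1, 75360329 to 75368579, plus strand) had 85.6, 71.2, 99.2, 108 and 120 CPM in female libraries 1 to 5, against 77.6, 74.3, 68.0, 104 and 87.5 CPM in male libraries 1 to 5. Female libraries 4 and 5 were the highest and male library 3 the lowest, and the sexes overlapped. Female libraries averaged 96.7 ± 18.9 CPM and male libraries 82.3 ± 14.02 CPM (SD, n = 5 each), a log2 fold change of 0.23 ± 0.15 (edgeR unadjusted p = 0.147, adjusted p = 0.987). Des reads were 99.99% unique, 26.9% of its exon reads crossed junctions, and its variance between libraries was 125 times that of counting, so the libraries differed in Des by more than counting error.

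Des is also a smooth muscle gene, and the listed smooth muscle genes differed widely in level. The 8 summed to 4339 to 5696 CPM in females and 4167 to 6384 CPM in males, with Acta2 and Tagln the highest. Actg2 was at 118 to 231 CPM, Myh11 at 22.6 to 58.4 CPM and the regulator gene Myocd at 2.49 to 5.93 CPM, with 0 of the 8 lacking reads. Their part in the Des level was not tested. Gm15179 overlaps Des on the opposite strand.

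No member passed the test between female and male cultures. Of the 6 members that passed the read filter (Pax3, Pax7, Chrna1, Acta1, Actc1 and Des), 0 were called by edgeR, against 0.0904% of the 16602 genes tested, and 0 had an unadjusted p under 0.05, against 5.55%. DESeq2 called 0 of the 5 for which it gave an adjusted p (it gave none for Actc1), against 0.434% of genes. The groups overlapped for all 10 members, where 0.976% of tested genes had no overlap between the sexes. Without female library 3 and male library 2, a choice made after their Ckm levels were seen, 0 members were called and 14 of 16480 genes were.

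**Figure D4:**
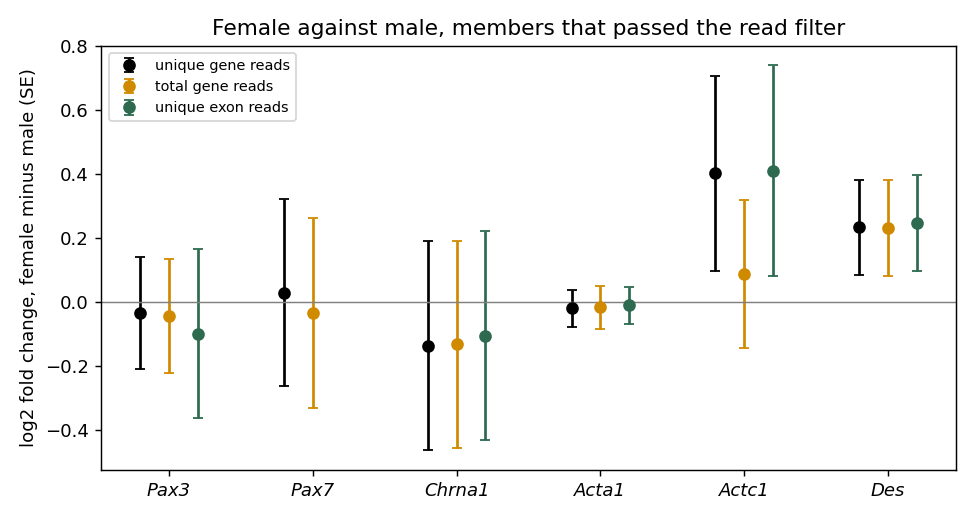
Log2 fold change, female minus male, with its SE (vertical axis), for the members that passed the read filter, from unique gene reads, total gene reads and unique exon reads. The fold changes lie between -0.14 and 0.41, and that of Actc1 is 0.40 from unique reads and 0.088 from total reads.

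Genes that surround the members in the myogenic program ranged from single reads to the 751 CPM of Myof, and 0 of them were called. Of 15 regulators and cofactors, 12 were tested and 0 called, 7 with a positive and 5 with a negative log2 fold change and a median of 0.015. The most abundant were the E-proteins Tcf12 (170 to 209 CPM) and Tcf3 (83.2 to 110 CPM), partners of the muscle factors in many tissues, and Mef2d (102 to 120 CPM), a MADS-box factor. Of 9 fusion and adhesion genes, 6 were tested and 0 called, 3 in each direction with a median of -0.0099, led by Myof (687 to 751 CPM), which acts in membrane repair, and the receptor genes Boc (37.9 to 45.8 CPM) and Cdon (33.2 to 42.6 CPM).

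Of 28 sarcomere genes, 12 passed the read filter and 0 were called, 4 positive and 8 negative with a median of -0.14. Without female library 3 and male library 2 the split was the same and the median -0.10. Its most abundant genes were Ttn, Neb, a giant protein of the thin filament (5.58 to 19.1 CPM), and Myom1 of the M-band (3.28 to 7.70 CPM). Of 15 genes of calcium handling and energy supply, 13 were tested and 0 called, 4 positive and 9 negative with a median of -0.093, which was -0.22 without those libraries. The membrane junction genes Jph2 (86.9 to 163 CPM) and Jph1 (4.32 to 7.16 CPM) and the enolase gene Eno3 (27.3 to 47.8 CPM) led this list.

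Inhibitors of the muscle factors ranged from a few reads (Mstn, 0 to 8 per library) to the level of Zeb1. Zeb1, a repressor that binds E-boxes, was at 144 to 199 CPM, Twist2, which interferes with E-protein partners, at 69.2 to 153 CPM, and Id3, which sequesters E-proteins, at 52.15 to 143 CPM. Of 13 such genes, 12 were tested and 0 called, 3 positive and 9 negative with a median of -0.070. Genes of limb and body position, which mark where mesenchyme comes from, were 5 of 5 tested and 0 called, with 5 negative values and a median of -0.48. Among them Hoxd13, a gene of the distal limb, averaged 11.7 ± 3.07 CPM in females and 23.2 ± 8.68 CPM in males (SD, n = 5 each; log2 fold change -0.99 ± 0.27, edgeR adjusted p = 0.563). Tbx4, of the hind limb, was at 7.95 to 15.5 CPM, and Pitx1, also of the hind limb, at 6.32 to 12.3 CPM. The part of these positions in the members' levels was not tested.

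Joint variation was measured for the 6 members that passed the read filter. Over 15 pairs the Pearson correlation of log2 CPM across the 10 libraries ranged from -0.75 to 0.73, with a median of 0.013 and 8 positive values. After Benjamini-Hochberg adjustment over the 15 pairs, 0 passed 0.05 by Pearson or by Spearman correlation, and 2 had an unadjusted Pearson p under 0.05. Both involved Chrna1.

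Des was lower where Chrna1 was higher (Pearson r = -0.75, permutation p = 0.0167, adjusted p = 0.135; Spearman rho = -0.67, permutation p = 0.0393, adjusted p = 0.294). Without the 2 libraries farthest from the median of Des, r was -0.91, without the 2 farthest from the median of Chrna1 it was -0.63, and with the sex means removed it was -0.75. Pax3 was higher where Chrna1 was higher (Pearson r = 0.73, permutation p = 0.0180, adjusted p = 0.135; Spearman rho = 0.84, permutation p = 0.0036, adjusted p = 0.0540). Without the 2 libraries farthest from the median of Pax3, r was 0.76, without the 2 farthest from that of Chrna1 it was 0.53, and with the sex means removed 0.74. Chrna1 levels fell into separate ranges of 4 and 6 libraries, and the relations were not tested within a range.

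**Figure D5:**
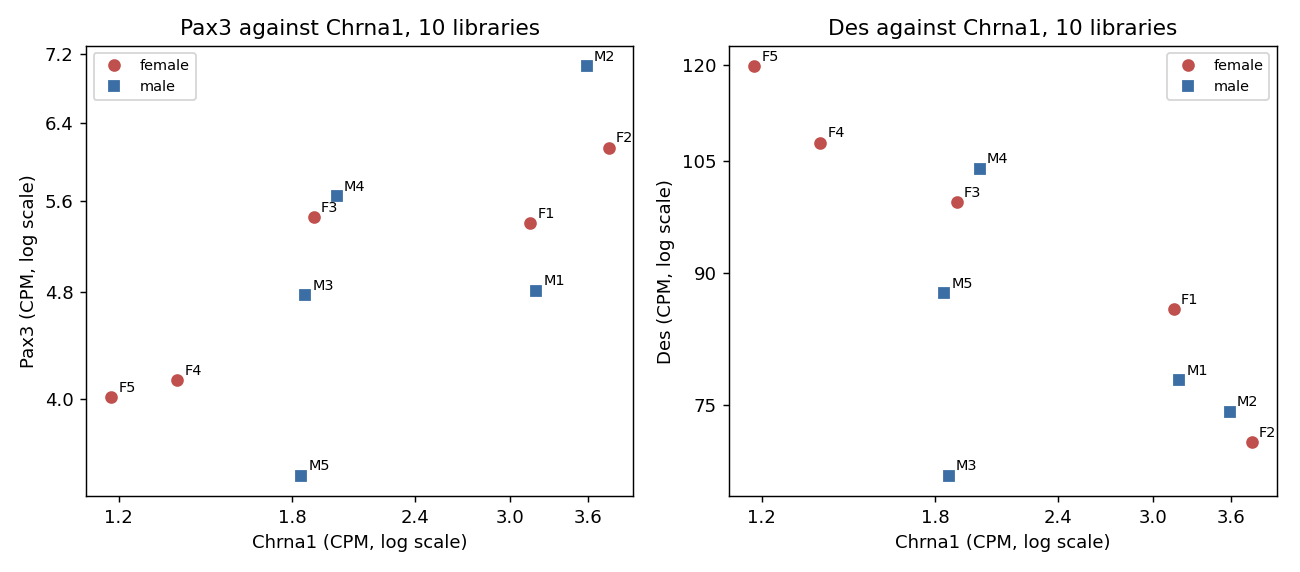
Pax3 against Chrna1, left, and Des against Chrna1, right, in CPM on log scales, for 5 female libraries (circles) and 5 male libraries (squares). Libraries 1 and 2 of both sexes hold the highest Chrna1 values, 3.14 to 3.77 CPM, with Des at 71.2 to 85.6 CPM in all 4 and the 2 highest Pax3 values in F2 and M2. The lowest Des value, 68.0 CPM, is in M3, outside these 4. Pax3 in F1 (5.39 CPM) and M1 (4.81 CPM) is below that in M4 (5.65 CPM) and F3 (5.45 CPM).

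Ckm was left out of these correlations because it fell below the read filter and its libraries form separate clusters. Beside the 68.7-fold range of Ckm, Acta1 spanned 51.4 to 60.5 CPM. Ckm passed the filter from total gene reads. It also passed with female library 1, 2, 4 or 5, or male library 3 or 4, left out. Of these settings, Ckm with Acta1 was the pair of smallest p-value only without male library 4. There the correlation was 0.81 (adjusted exact permutation p = 0.130 over 21 pairs), with Ckm in separate clusters there too. Male library 4 had the highest Acta1 value, 60.5 CPM, but 0.145 CPM of Ckm, so leaving it out removed a library that opposed the relation. The correlation of Ckm with Acta1 in the other settings is not given here, and no conclusion is drawn from it.

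The genes whose levels across the 10 libraries were most like each member, among 13375 tested genes of at least 1 CPM, are given by Pearson r of log2 CPM as a description. For Chrna1 they were Stc1 (0.94), Crebrf (0.93) and Mgst1 (0.93), and for Pax3 they were Slu7 (0.94), Rftn2 (0.92) and Zfp28 (0.91). For Des they were Slc38a4 (0.93), Trmt1 (0.92) and Dock2 (0.92). Pax7 was closest to H2-Q4 (0.94), Slc17a5 (0.89) and Zdhhc9 (0.88), though its own variation was no more than counting gives, and the same holds for Actc1, closest to Rnf111 (0.92), Ten1 (0.90) and Elk3 (0.90). Acta1 was closest to Arap3 (0.88), Lmcd1 (0.87) and Ppp1r37 (0.86). None of these neighbours is a gene of the muscle lists.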

How the data were processed

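RNA was measured in 10 libraries, 5 female and 5 male, grouped by their titles. The authors deposited a table of 52550 genes, and per the file headers it holds whole-number read counts per gene, unique and total, for whole genes, exons, exon junctions and introns. The authors also deposited RPKM values, computed from total exon reads and exon length, and, from their own test, a p-value per gene with its false discovery rate and a signed fold. Per the submitters' processing notes the build is mm10. Not given in the sources used here are the aligner, the counting rules and the use of strand. Starts counted from 0 in the table and were converted to count from 1. A further 80 columns of per-library values were not used.

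Unique gene reads were filtered with filterByExpr (minimum count 10), scaled by TMM and fitted with edgeR 4.0.16 in R 4.3.3 (robust quasi-likelihood, sex as the only term, two-sided), with Benjamini-Hochberg adjustment over all tested genes. Levels are CPM with TMM scaling. SE is the log2 fold change divided by the root of the F statistic. Correlations used log2 CPM with a prior count of 2 and 100000 permutations, or all permutations below 10 libraries. The step was tested on simulated data. Alternatives were DESeq2 1.42.0, its size factors, other filters and read classes, a prior count of 0.5, removal of sex means, the replicate number as a block, and leaving out each library. Counts of replicates differed by at least 11.5 times the counting variance, so no library was a second copy of another.

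The members and lists were chosen with earlier results of these data known. Named genes are the members, the called or otherwise 3 most abundant genes of each list, and each member's 3 nearest genes. The values of 1 listed gene are not reported here. Promoters are from RefSeq (GRCm38.p6), which matched 8 of 10 members, and actin sequences from GENCODE M21. Values were computed in Python 3.11.15 with scipy 1.17.1.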

Additional observations from a re-analysis of the deposited data

Results flagged for a closer look

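For each of the members and named list genes, the 5 libraries of each sex were checked with Dixon's criterion for a value standing apart. Of 86 such groups 14 were marked, where chance marks about 1 in 20 groups of normally spread values (4.3 of 86). That share does not hold for groups of 0 and 1 reads, where a lone read is always marked. Marks of genes high together in female library 3 and male library 2 are also not separate. No conclusion is drawn from the number of marks.

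Among the marked groups with more than single reads, the largest ratios to the other libraries were in genes of mature muscle. Ckm was at 5.72 CPM in female library 3, against 0.105 to 0.225 CPM in the other 4 females, and at 7.20 CPM in male library 2, against 0.128 to 1.34 CPM in the other 4 males. Ttn was at 39.2 CPM in female library 3, against 3.60 to 4.70 CPM in the other females, and at 56.2 CPM in male library 2, against 2.03 to 11.04 CPM in the other males. Neb was at 19.1 CPM in male library 2, against 6.72 to 8.07 CPM in the other males.

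For the regulators the marks rest on single reads. Myod1 was at 0.0245 CPM in male library 5, which is 1 read, against 0 in the other 4 males. Myog was at 0 CPM in female library 1, against 0.0770 to 0.105 CPM in the other females, and at 0.0290 CPM in male library 4, also 1 read, against 0 in the other males.

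The remaining marks were smaller in proportion. Myof was at 751 CPM in male library 2, against 712 to 723 CPM in the other males. Boc was at 45.8 CPM in female library 5, against 40.2 to 40.4 CPM in the other females, and at 44.5 CPM in male library 5, against 37.9 to 39.4 CPM in the other males. Zeb1 was at 186 CPM in female library 3, against 147 to 155 CPM in the other females. Tbx5 was at 6.08 CPM in male library 4, against 11.4 to 12.8 CPM in the other males. Sox10 was at 4.96 CPM in female library 1, against 2.94 to 3.40 CPM in the other females.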

How the results depend on the processing

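Members called stayed at 0 under all 18 alternatives run. The number of all genes called, 15, was 30 with no filter, 72 with DESeq2, 43 with the replicate block and 12 to 36 when 1 library was left out, highest without male replicate 1, and 14 with female replicate 3 and male replicate 2 left out, an alternative chosen after the data were seen. Same-numbered libraries deviated from their sex means with correlations that were all positive, from 0.0638 (number 4) to 0.394 (number 5). For numbers 1, 3 and 5 the female and the male library were each closest to the other. Male library 2 was closest to female library 2, but female library 2 to male library 4. For number 4 neither was closest to its own number. The titles do not say what the numbers stand for, so the main fit did not use them. Whether they mark a shared origin or batch was not tested. With the replicate block Des had a log2 fold change of 0.23 and an unadjusted p of 0.0294, where 1485 of 16602 genes had one under 0.05, and an adjusted p of 0.487 (edgeR). Pairs of members called numbered 7 under the block, which by construction leaves each female value the negative of the male one, so 5 values and not 10. Neither Des with Chrna1 nor Pax3 with Chrna1 was among the 7, and Des with Pax3 was 0.74 under the block, against -0.44 without it. Such pairs numbered 0 to 1 with 1 library left out: without male replicate 3, Des and Chrna1 had r = -0.94 (exact permutation, adjusted p = 0.0107). Small fold changes changed sign. With 1 library left out, Pax3 ranged from -0.15 to 0.10, Pax7 from -0.065 to 0.19, Acta1 from -0.049 to 0.016 and Chrna1 from -0.40 to 0.034 (log2, female minus male). Pax7 was -0.035 from total gene reads, and without both female replicate 3 and male replicate 2 Pax3 was 0.074 and Chrna1 0.096. Des (0.15 to 0.33) and Actc1 (0.24 to 0.48) kept their sign, and the cause of these moves was not tested. Depth limits Myf5, Myod1 and Myog to 0 to 5 reads per library, Pax7 to 10 to 17 and Actc1 to 6 to 19.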
